A study of Mus musculus with 4 samples.

Results

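Levels of 9 transcription regulators of the muscle lineage were examined in satellite cells, the stem cells of skeletal muscle: Pax7, Pax3, Myf5, Myod1, Myog, Myf6, Six4, Eya1 and Msc. They were chosen by name from the 55487 genes of the deposited tables, and all 9 were found and passed the filter on low counts. Mouse muscle stem cells taken directly after isolation gave 4 RNA-seq libraries, 2 labelled Control and 2 labelled Rbfox2 knockout (conditional knockout, cKO), each made from 10 ng of RNA. Paired values are given below in the order replicate 1, replicate 2. The cKO animals carried a floxed Rbfox2 gene, which encodes an RNA-binding regulator of splicing, with a Pax7CreERT2 driver that deletes it in satellite cells after tamoxifen, and a Rosa26 EYFP reporter that labels the deleted cells. The labels do not give the genotype of the Control animals beyond that word, nor age, sex or the number of animals in a library. The driver of the deletion and one of the genes measured here are both Pax7, so an effect of the driver allele on the Pax7 reading cannot be told apart from an effect of the Rbfox2 deletion.

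Pax7 and Pax3 are paired-box factors that act at the top of the myogenic programme, and Pax7 is the defining factor of adult satellite cells. Myf5, Myod1, Myog and Myf6 (also called MRF4) are the myogenic regulatory factors, basic helix-loop-helix (bHLH) proteins that bind E-box sequences together with E proteins. Myf5 and Myod1 act in commitment to the lineage, and Myog and Myf6 in differentiation. Six4 is a homeodomain factor and Eya1 its coactivator, and together with their relatives they act upstream of the myogenic factors. Msc (musculin, also called MyoR) is a bHLH repressor that competes with MyoD.

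Library totals lay between 68884091 and 101997422 estimated counts. In CPM (counts scaled by library size), the targeted Rbfox2 reached 131.3 and 55.98 in the Control pair and 40.04 and 15.17 in the cKO pair. All 10 satellite cell markers were present, and their TPM (transcript abundance per length, scaled to one sum per library) summed to between 13244 and 14399. Most of that sum was Sdc4 alone, at 10958 to 12058 TPM, whereas Pax7 stood at 6.995 to 15.9 TPM. Summed TPM of 7 endothelial markers ran from 119.0 to 161.7 and of 7 fibro-adipogenic progenitor markers from 314.3 to 438.8, with the groups overlapping for fibro-adipogenic markers and cKO above Control for endothelial ones. The sums of tenocyte (35.6 to 66.0 TPM) and of Schwann cell and glial markers (27.9 to 39.0 TPM) were also higher in cKO. Those of pericyte and smooth muscle (129.5 to 153.5 TPM) and mature fibre markers (40.5 to 64.5 TPM) overlapped. For cKO 2 the gap to Control 2 was narrow in the tenocyte (40.9 against 38.4 TPM) and endothelial sums (132.2 against 129.0 TPM). Single markers did not all go with their sum. The log2 fold change in CPM (cKO over Control) was negative for 2 of 7 endothelial and 2 of 5 tenocyte markers. It was also negative for 2 of 5 Schwann cell and glial markers. Among single genes with a TPM above 0, 21.4% had both cKO libraries above Control. Leukocyte markers summed to 29.0 and 31.0 TPM in Control and 49.6 and 41.9 TPM in cKO, with 4 of the 8 under 1 TPM on average. The highest of them were Cd68 and Lyz2. Cd68 measured 15.9 and 13.9 TPM in Control and 16.4 and 23.4 TPM in cKO. Lyz2 measured 8.21 and 11.5 TPM in Control and 21.9 and 15.0 TPM in cKO. The log2 fold change in CPM was positive for 7 of the 8 and negative for Itgam (-1.96, adjusted p = 0.267 in edgeR). The sum of 7 erythroid markers was 337.3 and 763.5 TPM in Control and 1800 and 1471 TPM in cKO. Of these 5 passed an adjusted p under 0.05 in edgeR, all higher in cKO (Hba-a1, Hba-a2, Hbb-bs, Hbb-bt and Alas2), where 0.551% of all genes tested passed. All 5 lost the call in DESeq2 (adjusted p = 0.0643 for Alas2 to 0.424 for Hba-a2), with library totals in edgeR (adjusted p = 0.0951 to 0.937) and with any 1 library left out (adjusted p = 0.0700 to 1.00), and the 4 globin genes also with the replicate number as a block (adjusted p = 0.0754 to 0.321). Low-level background was highest in cKO 1: the 95th percentile of TPM over 1739 olfactory and vomeronasal receptor genes was 1.85 there but 0.879 and 1.16 for the Control pair and 0.710 for cKO 2. The part of these differences in the results below was not tested, and in bulk RNA fewer cells of a type and less RNA per cell cannot be told apart.

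The factors differed in level over 3 orders of magnitude, with Myod1 at the top and Myf6 at the bottom. Because TPM is a level per transcript length, it allows one gene to be compared with another within a library. Myod1 measured 2292 and 2544 TPM in the Control libraries, against 3042 and 2441 TPM in the cKO libraries, which placed it between rank 32 and rank 43 of 21903 protein-coding genes. Myf5 followed at 981.9 and 850.9 TPM in the Control libraries, against 784.4 and 956.1 TPM in the cKO libraries, and Msc at 387.5 and 363.2 TPM in the Control libraries, against 414.0 and 391.2 TPM in the cKO libraries. These 3 bHLH genes were thus abundant in every library, and their order was the same in all 4.

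Eya1 lay an order of magnitude lower, at 33.8 and 30.5 TPM in the Control libraries, against 35.6 and 29.7 TPM in the cKO libraries. Pax7, the defining gene of the cell type, measured 7.90 and 6.995 TPM in the Control libraries, against 15.9 and 13.5 TPM in the cKO libraries, between rank 5216 and rank 7055. Pax3 measured 4.03 and 5.03 TPM in the Control libraries, against 9.60 and 7.41 TPM in the cKO libraries. Pax7 exceeded Pax3 in every library, by a ratio of TPM from 1.39 in Control 2 to 1.96 in Control 1.

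Myog measured 4.82 and 3.84 TPM in the Control libraries, against 3.33 and 2.88 TPM in the cKO libraries. Six4 measured 4.05 and 3.21 TPM in the Control libraries, against 6.12 and 4.38 TPM in the cKO libraries. Myf6 measured 2.91 and 1.77 TPM in the Control libraries, against 2.17 and 2.18 TPM in the cKO libraries. In Control the ranges of Pax3 and Myog overlapped, as did those of Myog and Six4, so these 3 have no order there. In cKO both Pax3 and Six4 lay above Myog in both libraries. Every other pair of neighbours, from Myod1 down to Pax7 and Pax3 and from Six4 to Myf6, kept its order without overlap within each group.

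**Figure D1:**
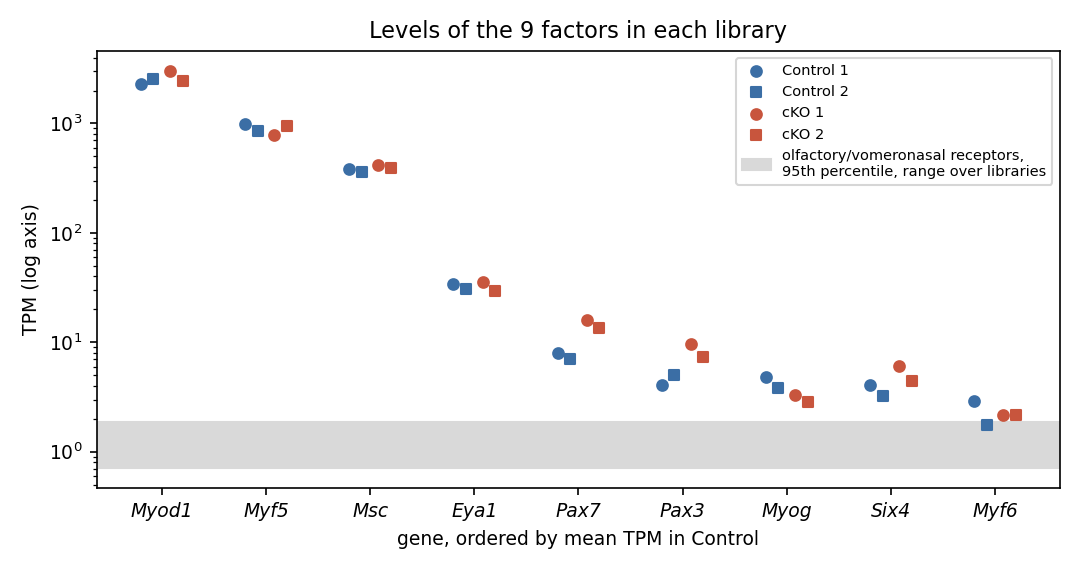
TPM of the 9 genes (vertical log axis) in each of the 4 libraries, with genes on the horizontal axis ordered by mean TPM in Control. Blue points are Control and red points cKO, circles replicate 1 and squares replicate 2, and the grey band is the range over libraries of the 95th percentile of olfactory and vomeronasal receptor genes. Myod1 lies between 2292 and 3042 TPM, and the Myf6 point of Control 2 (1.77 TPM) lies in the band. In each library Myf6 lies above that library's own 95th percentile, which is 1.16 TPM in Control 2.

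The lowest genes were compared with receptor genes that satellite cells are not known for. The median of those receptor genes was 0.239 to 0.679 TPM over the libraries, below Myf6 and Myog in each. Myf6 exceeded 98.7% of the 1739 receptor genes in Control 2, 97.0% in cKO 1 and more in the other libraries, and Myog exceeded 99.4% in cKO 1. The remaining 7 genes exceeded at least 99.9% of them in each library. In each library at least 1 receptor gene was not below Myf6.

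The 4 myogenic regulatory factors made up 3282 and 3400 TPM in Control and 3832 and 3402 TPM in cKO, and the composition of this sum was almost all Myod1 and Myf5. Myod1 held 69.8% and 74.8% of it in the Control libraries, against 79.4% and 71.7% in the cKO libraries. Myf5 held 29.9% and 25.0% in the Control libraries, against 20.5% and 28.1% in the cKO libraries, so the groups overlapped for both. Myog held 0.147% and 0.113% in the Control libraries, against 0.0869% and 0.0846% in the cKO libraries, and Myf6 between 0.0521% and 0.0888% in all libraries. The mean share differed by 3.24 percentage points for Myod1 and by -3.19 for Myf5 (exact permutation test, two-sided, p = 0.667 for each, n = 2 each, adjusted over the 4 factors p = 0.889). For Myog the difference was -0.0442 percentage points (exact permutation p = 0.333, the smallest that 2 against 2 libraries allow, adjusted p = 0.889), and for Myf6 it was -0.0101 (exact permutation p = 1.00). Without cKO 1 the differences for Myod1 and Myf5 had the opposite sign, at -0.579 and 0.630.

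Myf5 and Myf6 are neighbours on one strand, 6718 bases apart, and showed very different levels. Myf5 (ENSMUSG00000000435.1) lies on GRCm38 chromosome 10 at 107482908 to 107486134 on the minus strand, and Myf6 (ENSMUSG00000035923.4) at 107492853 to 107494737. Myod1 (ENSMUSG00000009471.4) lies on chromosome 7 at 46376474 to 46379099 and Myog (ENSMUSG00000026459.5) on chromosome 1 at 134289989 to 134292548, both on the plus strand. Myod1 exceeded Myog by a ratio of TPM of 475.1 and 663.1 in the Control libraries, against 913.8 and 848.6 in the cKO libraries. The promoters of Myf5 and Myog are shown because these related genes stood far apart in level in the same cells, and that of Pax7 because its groups did not overlap. They are given 5′ to 3′ from 250 bases before to 50 bases after the annotated start (RefSeq, GRCm38.p6), with E-boxes (CANNTG, which reads the same on both strands) and TATAAA on either strand in capitals.

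Myf5 (chr10:107486085-107486384, minus strand): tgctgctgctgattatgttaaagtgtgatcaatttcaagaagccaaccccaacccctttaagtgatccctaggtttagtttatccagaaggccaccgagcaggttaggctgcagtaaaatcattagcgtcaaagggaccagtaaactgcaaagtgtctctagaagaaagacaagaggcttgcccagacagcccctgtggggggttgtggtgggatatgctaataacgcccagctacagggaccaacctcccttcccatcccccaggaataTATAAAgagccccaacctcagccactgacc
Myog (chr1:134289754-134290053, plus strand): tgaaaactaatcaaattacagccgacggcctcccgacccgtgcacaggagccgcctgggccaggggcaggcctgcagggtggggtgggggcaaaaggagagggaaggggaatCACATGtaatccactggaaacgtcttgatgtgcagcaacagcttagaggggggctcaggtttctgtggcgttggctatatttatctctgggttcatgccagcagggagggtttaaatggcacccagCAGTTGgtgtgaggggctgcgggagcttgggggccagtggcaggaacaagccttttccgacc
Pax7 (chr4:139832919-139833218, minus strand): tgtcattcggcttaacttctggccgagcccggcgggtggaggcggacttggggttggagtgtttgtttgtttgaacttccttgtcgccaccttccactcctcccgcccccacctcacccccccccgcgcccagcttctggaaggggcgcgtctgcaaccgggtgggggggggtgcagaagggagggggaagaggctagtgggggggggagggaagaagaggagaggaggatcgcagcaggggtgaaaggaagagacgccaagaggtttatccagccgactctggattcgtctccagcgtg

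The Myog window held 2 E-boxes, CACATG and CAGTTG, and the Myf5 and Pax7 windows held 0. In GENCODE M21 the Pax7 gene runs from 139737062 to 139833528 on the minus strand. The Pax7 window thus lies wholly inside it, after the gene start of that annotation. TATAAA was found once, in the Myf5 window. Over 32851 promoters of the same length, 72.3% held at least 1 E-box and 13.6% held TATAAA, and the motifs did not overlap each other here. Of the 9 genes, 4 had a promoter in the table, the other being Six4.

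The comparison of Control with cKO asks whether the factors differ between cells of Control and of Rbfox2 cKO animals. With all 4 libraries, 0 of the 9 genes passed the threshold of an adjusted p under 0.05 in edgeR's quasi-likelihood test, where 0.551% of all 38143 genes tested did. At an unadjusted p under 0.05 there were 2, Pax7 and Pax3, against 4.83% of all genes. In CPM the cKO values were all above the Control values for 3 genes (Pax7, Pax3 and Six4), where 18% of all genes tested did so, and below for 1 (Myog), against 13.3%. The median log2 fold change was -0.08 over the 9 genes and 0.06 over all genes tested. CPM here are scaled by TMM, a normalization to the bulk of genes. The 95% intervals below rest on a variance that edgeR pools over many genes. They do not measure each gene's own spread between its libraries. The labels do not tie the libraries to separate animals.

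Pax7 (ENSMUSG00000028736.13, chromosome 4, 139737062 to 139833528, minus strand) measured 26.5 and 22.7 CPM in the Control libraries, against 38.9 and 49.3 CPM in the cKO libraries. Both cKO libraries were higher than both Control libraries. The mean went from 24.6 ± 2.70 to 44.1 ± 7.36 CPM (SD, n = 2 each), a log2 fold change of 0.84 (SE 0.33, 95% interval 0.19 to 1.49) with an adjusted p = 0.556 in edgeR, which did not pass. Between same-numbered libraries the log2 ratio was 0.55 for number 1 and 1.12 for number 2. Pax7 passed in edgeR with library totals as the only scaling (0.98, adjusted p = 0.00911), a scaling that moved the median of all genes from 0.06 to 0.25, in limma on TPM with no filter (0.89, adjusted p = 0.0359) and without cKO 1 (1.013, adjusted p = 0.00139). Over all 14 alternatives the adjusted p ran from 0.00139 to 1.00 and the log2 fold change from 0.59 to 1.013. Of the 10 satellite cell markers, Pax7 included, 0 passed and 5 had a positive log2 fold change (median 0.06). The summed erythroid markers given above were also higher in both cKO libraries, and their part in the Pax7 difference was not tested.

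Pax3 (ENSMUSG00000004872.15, chromosome 1, 78101267 to 78197134, minus strand) showed the same arrangement at a lower level. It measured 8.58 and 10.5 CPM in the Control libraries, against 14.9 and 17.1 CPM in the cKO libraries, so again both cKO libraries were higher. The log2 fold change was 0.75 (SE 0.32, 95% interval 0.11 to 1.38) with an adjusted p = 0.759 in edgeR, and the ratios between same-numbered libraries were 0.79 and 0.71. It passed only without cKO 1 (0.86, adjusted p = 0.0489), over 14 alternatives with an adjusted p up to 1.00. Summed over both Pax genes the level was 11.9 and 12.02 TPM in Control and 25.6 and 20.9 TPM in cKO. Pax3 and Pax7 shared 0.275% and 0% of their 50-base words with other annotated genes, and neither with the other of the pair.

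Relative to Myod1 in the same library, Pax7 was higher in cKO. The ratio uses the Pax7 values already given, so it is not a separate observation of Pax7. Myod1 exceeded Pax7 by a ratio of TPM of 290.0 and 363.6 in Control 1 and 2 and of 190.8 and 181.3 in cKO 1 and 2, and the groups did not overlap. How many of all genes lie apart in their ratio to Myod1 was not computed. The mean log2 ratio of Pax7 to Myod1 was -8.34 ± 0.23 in Control and -7.54 ± 0.05 in cKO (SD, n = 2 each), a difference of 0.80 with p = 0.333 in a two-sided exact permutation test, the smallest p this design allows. Myf5 exceeded Pax7 by 124.2 and 121.6 in the Control libraries, against 49.2 and 71.0 in the cKO libraries. Against Pax3, in contrast, the ratio of Pax7 overlapped between the groups, with mean log2 ratios of 0.72 and 0.80.

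**Figure D2:**
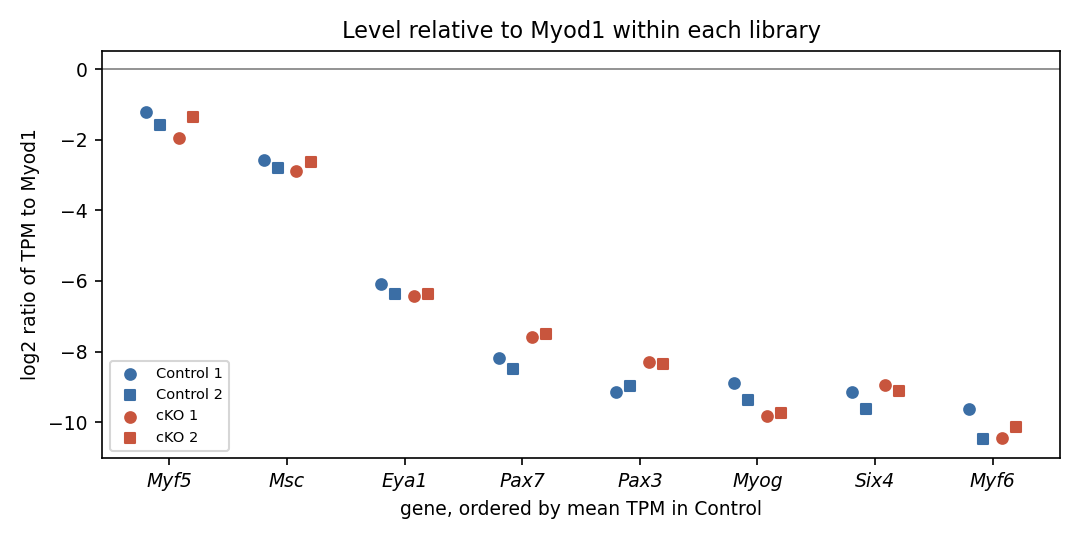
Log2 ratio of the TPM of 8 genes to that of Myod1 in the same library (vertical axis), with genes on the horizontal axis in the order of their Control level. Blue points are Control and red points cKO, circles replicate 1 and squares replicate 2. For Pax7, Pax3 and, narrowly, Six4 the cKO points lie above the Control points, and for Myog below. The share of all genes so arranged on this scale was not computed. In CPM 18% of all genes tested had cKO above and 13.3% below.

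For the most abundant factors the groups overlapped. Myod1 measured 2542 and 2782 CPM in the Control libraries, against 2493 and 2913 CPM in the cKO libraries. Its log2 fold change of 0.02 (SE 0.40, adjusted p = 1.00 in edgeR) has a 95% interval that reaches from a fold of 0.588 to 1.75. Within that range this fit resolves no difference. The width depends on the setting, with an SE of 0.12 with library totals and 0.52 with DESeq2 size factors. The sign turned in DESeq2 (-0.03) and with DESeq2 size factors (-0.04). Myf5 measured 1219 and 1042 CPM in the Control libraries, against 719.6 and 1277 CPM in the cKO libraries. The low value was that of cKO 1, and the pair ratios were -0.76 and 0.29. The Myf5 log2 fold change was -0.18 (SE 0.39, adjusted p = 1.00 in edgeR), with 0.19 without cKO 1 and -0.72 without cKO 2 (adjusted p = 0.0140).

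Myog measured 4.30 and 3.37 CPM in the Control libraries, against 2.19 and 2.77 CPM in the cKO libraries, on 191 to 341 estimated counts a library. Both cKO libraries were lower, so leaving 1 library out could hardly turn the sign. The log2 fold change was -0.63 (SE 0.37, 95% interval -1.36 to 0.10, adjusted p = 1.00 in edgeR) and stayed negative in all 13 alternatives, none of which passed, from -0.87 to -0.37. Myf6 measured 2.19 and 1.32 CPM in the Control libraries, against 1.22 and 1.77 CPM in the cKO libraries, on 106 to 174 estimated counts. The groups overlapped (-0.23, SE 0.46, adjusted p = 1.00 in edgeR), and the sign turned without Control 1 (0.17) and without cKO 1 (0.02).

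Six4 (ENSMUSG00000034460.9, chromosome 12, 73099609 to 73113456, minus strand) measured 15.6 and 12.3 CPM in the Control libraries, against 17.5 and 18.3 CPM in the cKO libraries. Both cKO libraries were higher, by a margin smaller than for the Pax genes (log2 fold change 0.36, SE 0.32, adjusted p = 1.00 in edgeR). Eya1 (ENSMUSG00000025932.14, chromosome 1, 14168954 to 14310235, minus strand) measured 71.1 and 59.1 CPM in the Control libraries, against 49.97 and 62.3 CPM in the cKO libraries, and the groups overlapped (-0.21, SE 0.34, adjusted p = 1.00). Msc (ENSMUSG00000025930.6, chromosome 1, 14753346 to 14755992, minus strand) lies 443110 bases from Eya1. It measured 321.5 and 296.8 CPM in the Control libraries, against 248.4 and 336.6 CPM in the cKO libraries (-0.08, SE 0.36, adjusted p = 1.00). In TPM both cKO libraries lay above Control for Msc, where 21.4% of all genes with a TPM above 0 did so, and its sign was positive in limma (0.10) and with library totals (0.05). Msc shares 19.0% of its 50-base words with other genes, mainly Gm9947 on the opposite strand, which stood at 1.51 to 2.56 TPM. Reads of this pair may not have been separated by strand.

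**Figure D3:**
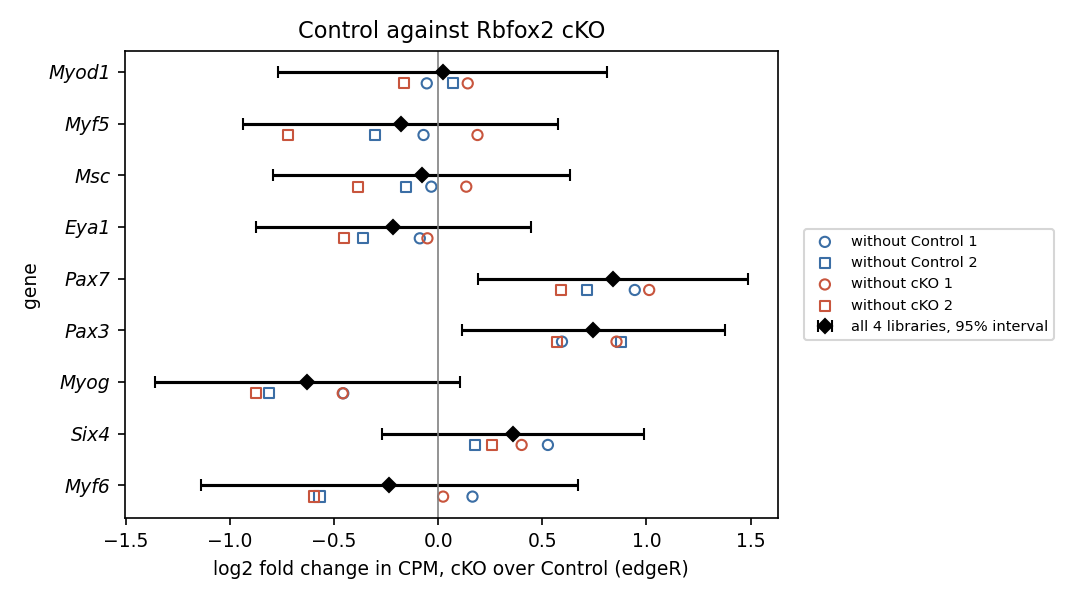
Log2 fold change in CPM of cKO over Control (horizontal axis) for the 9 genes (vertical axis). Black diamonds with bars are the estimate from all 4 libraries with its 95% interval in edgeR, and open symbols are the estimate with 1 library left out. The intervals of Pax7 and Pax3 lie above 0 before adjustment, and those of the other 7 genes cross 0.

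The mean transcript length implied by the ratio of count to TPM gives a coarse reading of which transcripts were assembled for a gene. For Pax7 it was 5629 and 5522 bases in the Control libraries, against 5531 and 5704 in the cKO libraries, against 5854 bases for its longest annotated transcript. For Pax3 it was 3574 and 3549 bases in the Control libraries, against 3509 and 3605 in the cKO libraries. Over the 9 genes the highest and lowest library differed most for Eya1, with 3527 and 3301 bases in the Control libraries, against 3188 and 3270 in the cKO libraries, a ratio of 1.11. Myod1, Myf5, Myog and Myf6 have 1 annotated transcript each, so the value carries no such reading for them.

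Rbfox proteins bind the RNA word UGCAUG, written TGCATG in the transcript sequences. In the longest annotated coding transcript, on the sense strand, 4 of the 9 genes held it: Pax7 3 times and Myf5, Myog and Six4 once each. They are shown because the deleted gene encodes a protein that binds this word, with the word in capitals and 8 bases to each side (GENCODE M21).

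Pax7, coding sequence: ctccccgcTGCATGgaggcctg
Pax7, after the coding sequence: tattgtttTGCATGgaaatggt
Pax7, after the coding sequence: agtgtgtgTGCATGaggggtgt
Myf5, coding sequence: gtatcaaaTGCATGtgctgcag
Myog, after the coding sequence: gctgggtgTGCATGtgagcccc
Six4, after the coding sequence: agcatggaTGCATGttagcaga

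Among protein-coding genes with a transcript of like length (from 0.8 to 1.2 times, a window set after the values were seen), 79.3% held the word for the length of Pax7, 42.8% for Myf5, 30.9% for Myog and 82.8% for Six4, and 51.6% of all 21901 genes held it. The word was not found in Pax3 or Myod1 by this search. Introns, where splicing regulators also bind, were not searched.

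By a rule of likeness over the 4 libraries, 3 genes were nearest to Pax7 among 7181 named protein-coding genes with a mean of at least 10 CPM. Likeness was the root mean square difference of log2 CPM after each gene's mean was taken out. They were Slc10a6 (0.0684), Rerg (0.0740) and Gpnmb (0.0778), and 12 genes (0.167%) lay within 0.1. Slc10a6 measured 184.3 and 173.6 CPM in the Control libraries, against 263.8 and 364.0 CPM in the cKO libraries. For Myod1, whose 4 values lay close together, 554 genes (7.71%) lay within 0.1. Only 4 libraries enter this measure, so it is a description of them.

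The partners of the factors were taken from 8 lists with 68 genes, of which 66 were tested. Of these 1 rose, 0 fell and 65 did not pass, where 0.551% of all genes tested passed. The median log2 fold change was 0.08 over the partners, and 37 were positive.

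The gene that rose was Mdfic, a relative of Mdfi (I-mfa), which holds myogenic bHLH factors inactive. Mdfic measured 24.2 and 27.1 CPM in the Control libraries, against 61.9 and 83.3 CPM in the cKO libraries, and the groups were far apart. The log2 fold change was 1.502 (SE 0.34, adjusted p = 0.00417 in edgeR). In TPM it stood at 28.1 and 20.7 in the Control libraries, against 52.1 and 49.0 in the cKO libraries, and limma on TPM gave 1.04 (adjusted p = 0.0594). Its implied mean transcript length was 1444 and 2233 bases in Control against 2699 and 2650 bases in cKO, longer in both cKO libraries. Mdfic lost its call without Control 1 (1.41, adjusted p = 1.00), without Control 2 (1.57, adjusted p = 1.00), with DESeq2 size factors (1.45, adjusted p = 0.208), with no filter (1.48, adjusted p = 0.462) and with the replicate number as a block (1.49, adjusted p = 0.133).

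The other 11 of the 12 tested inhibitors of myogenic bHLH factors did not pass, and the median of the list was 0.21. Id3 and Id2 sequester E proteins from the myogenic factors. Id3 was the most abundant, at 1296 and 1520 TPM in the Control libraries, against 1740 and 1679 TPM in the cKO libraries (log2 fold change in CPM 0.15, adjusted p = 1.00 in edgeR). Id2 measured 569.3 and 557.4 TPM in the Control libraries, against 235.1 and 395.4 TPM in the cKO libraries, lower in both cKO libraries (-0.77, SE 0.37, adjusted p = 0.926). Of the E proteins, the binding partners of the myogenic factors, 0 of 3 passed. Tcf4 measured 58.7 and 53.2 TPM in the Control libraries, against 87.3 and 100.4 TPM in the cKO libraries, but its log2 fold change in CPM was 0.23 (adjusted p = 1.00), with an implied mean length of 3528 and 3367 bases in the Control libraries, against 2878 and 2456 in the cKO libraries. Tcf12 stood between 17.6 and 21.3 TPM in all libraries.

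The other Six, Eya and Dach genes gave 0 of 8 past the threshold, with a median of 0.08. Eya4 stood between 3.98 and 8.14 TPM (0.35, adjusted p = 1.00). All 7 other Pax genes were under 1 TPM on average, the highest being Pax6 (0.422 to 0.890 TPM) and Pax5 (0.298 to 0.671 TPM), and 0 passed. Of the 7 cofactors of Pax3 and Pax7, chiefly histone methyltransferase subunits, 0 passed, with a median of -0.13. Wdr5, a core subunit of such complexes, stood between 94.1 and 109.0 TPM (-0.27, adjusted p = 1.00) and Paxbp1, which links them to Pax factors, between 28.8 and 39.5 TPM (-0.15, adjusted p = 1.00).

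Of 8 coactivators and partners of MyoD 0 passed, with a median of 0.16. The acetyltransferase Crebbp stood between 42.8 and 65.6 TPM (-0.26, adjusted p = 1.00) and the arginine methyltransferase Prmt5 between 46.6 and 54.4 TPM (-0.23, adjusted p = 1.00). Of 8 RNA-binding proteins that act on transcripts of myogenic factors 0 passed. Zfp36l1, which binds AU-rich elements and promotes mRNA decay, measured 127.4 and 174.8 TPM in the Control libraries, against 327.9 and 243.9 TPM in the cKO libraries, higher in both cKO libraries (0.75, SE 0.37, adjusted p = 0.972). Its relative Zfp36 measured 110.1 and 132.6 TPM in the Control libraries, against 200.3 and 145.0 TPM in the cKO libraries (0.34, adjusted p = 1.00).

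A list of differentiation targets of the myogenic factors gave 0 of 13 past the threshold, with a median of -0.02. The list includes Cdh15, which is also among the satellite cell markers, so it does not hold differentiation genes alone. Musk, the receptor kinase of the neuromuscular junction, stood between 624.1 and 777.0 TPM (-0.09, adjusted p = 1.00). Des, the muscle intermediate filament, stood between 502.0 and 659.6 TPM (-0.18, adjusted p = 1.00). The lowest log2 fold change of the list was that of Mymk, the fusion protein myomaker, chosen after its values were seen. Mymk measured 1.02 and 2.11 TPM in the Control libraries, against 1.012 and 0.385 TPM in the cKO libraries (-1.41, adjusted p = 0.667 in edgeR). These values are near the low-level background. The 95th percentile of the olfactory and vomeronasal receptor genes was 0.879 and 1.16 TPM in Control, below Mymk. In cKO it was 1.85 and 0.710 TPM, above Mymk.

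**Figure D4:**
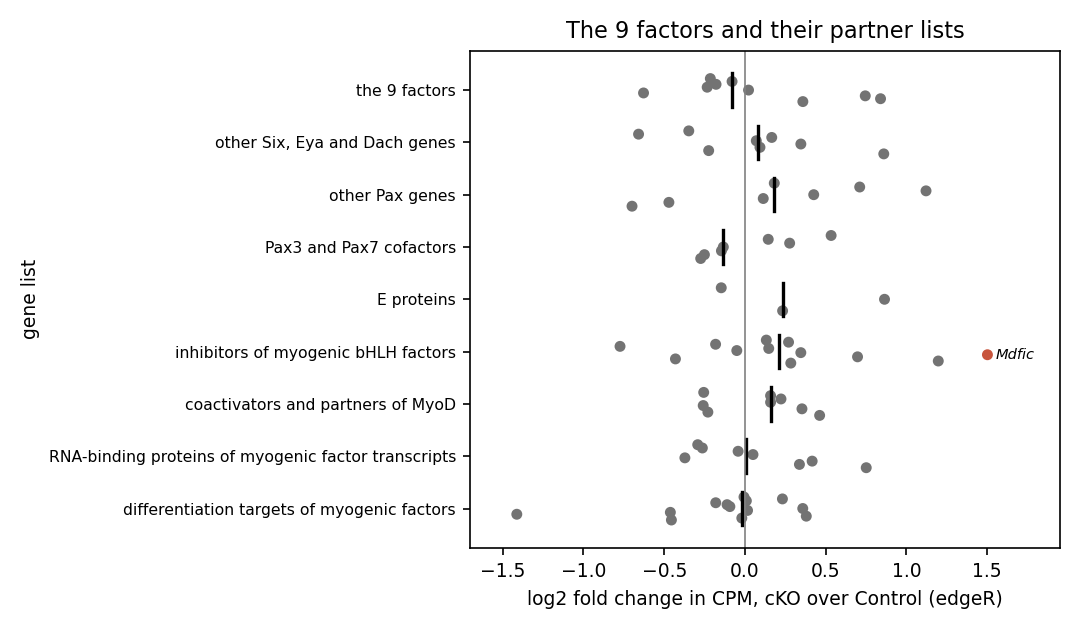
Log2 fold change in CPM of cKO over Control in edgeR (horizontal axis) for the tested genes of each list (vertical axis, 1 point a gene). The black line is the list median, and red marks an adjusted p under 0.05. Mdfic, at 1.502, is the gene past the threshold.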

How the data were processed

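Per the labels' protocols, SMART-Seq cDNA of 4 satellite cell samples went into MGI libraries. Tools listed by the submitters' processing notes, without roles, are HISAT2 2.1.0 and StringTie 1.3.6, with the build GRCm38. Strand setting and annotation release: not given in the sources used here. The deposited estimated counts per gene are whole numbers. The deposited TPM sum to the same total in each library and keep no depth. In 1671 genes with 1 transcript, 98.7% to 98.9% of counts lay within 1% of a constant times TPM times length, so counts may derive from coverage and no counting interval is given. The implied mean length is the count over the product of TPM and that constant.

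The test was edgeR 4.0.16 under R 4.3.3 (TMM, filterByExpr, robust quasi-likelihood), with Benjamini-Hochberg adjustment over all genes and a threshold of 0.05. The SE is the size of the fold change over the root of F. Alternatives were DESeq2 1.42.0, its size factors, library totals, no count filter or at least 5 CPM in 2 libraries, limma 3.58.1 on log2(TPM + 1) at a mean TPM of at least 1, a pseudocount of 0.1, no TPM filter, a replicate block, and each library left out. The shares and ratios were also computed on TPM + 1 and on CPM per kb. Scripts were tested on simulated data. The 9 genes and the lists were chosen with earlier results of these data known. Named partners are, per list, up to 3 called genes and the 2 highest in mean TPM; some genes that the rules name are not reported here. Of 55487 identifiers, 55394 matched GENCODE M21, which gave coordinates and transcripts. Same-numbered libraries share L01 or L02 in their codes, and the last digit of the code differs between the groups and cannot be told apart from genotype.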

Additional observations from a re-analysis of the deposited data

How the results depend on the processing

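The number of genes called over the whole table was 210, and it was 119 with DESeq2 size factors, 92 in DESeq2, 28 when all genes with a count were kept, 14 under the CPM filter, 53 in limma on log2(TPM + 1), 102 with a pseudocount of 0.1, 404 with no filter on TPM, and 51 to 2267 with 1 library left out. With library totals it was 282. Of the 9 factors, 0 were called, but 1 (Pax7) was with library totals and with no filter on TPM, and 0 to 2 with 1 library left out: Pax7 and Pax3 without cKO 1, and Myf5 without cKO 2. Such fits leave 1 cKO library, which is assumed to vary like Control.

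With the replicate number as a block 96 genes were called, 86 of them among the 210, and 0 of the 9 factors. Deviations of same-numbered libraries correlated at -0.179, which does not show that the numbers pair the samples. Same-numbered libraries share L01 or L02 in their codes, whose meaning the labels do not give. With the crossed pairing, added after the data were seen, 243 genes and 0 of the 9 were called.

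The sign turned for these: Myod1 at -0.0396 with DESeq2 size factors, -0.0280 in DESeq2, -0.00041 with no filter and from -0.16 to 0.14 with 1 library left out; Myf5 from -0.72 to 0.19 and Myf6 from -0.60 to 0.17 with 1 left out; Eya1 at 0.017 in limma on log2(TPM + 1), filtered or not, and 0.018 with a pseudocount of 0.1; Msc at 0.053 with library totals, 0.020 with the CPM filter, 0.10 in the limma fits and from -0.38 to 0.14 with 1 left out. The Pax7, Pax3 and Six4 log2 fold changes stayed positive in all 14 alternatives each, and that of Myog negative in its 13. For each of these genes both cKO libraries lay on one side of both Control libraries. Leaving 1 library out could therefore hardly turn the sign. With 1 library left out, the shares differed by -7.00 to 0.63 points for Myf5, -0.579 to 7.06 for Myod1 and from -0.0284 to 0.00829 for Myf6, with no test. The CPM filter gives no value for Myog and Myf6. The difference between the groups in the log2 ratio of Pax7 to Myod1 was positive throughout, from 0.641 to 0.967 with 1 library left out. The groups do not overlap in this ratio, so leaving 1 library out could not turn its sign.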
